A study of Mus musculus with 24 samples.

Results

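The glucocorticoid receptor target genes followed here were 10 genes that glucocorticoids are known to induce in many tissues: Fkbp5, Tsc22d3, Sgk1, Zbtb16, Klf9, Klf15, Ddit4, Dusp1, Errfi1 and Pdk4. They were chosen by symbol, with earlier results of these data known, and each was read from the probe set (a group of short probes for 1 transcript) with the highest mean log2 intensity among those that carry its symbol alone. In all, 10 of 10 passed the filter on dim probe sets, among 12352 genes tested. No glucocorticoid was given in this study, and the question put to these genes was whether their RNA differed between progesterone (P4) and vehicle, and between the vehicle groups.

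The glucocorticoid receptor is a nuclear hormone receptor that waits in the cytoplasm with heat shock proteins, enters the nucleus when it binds cortisol or corticosterone, and occupies DNA at a short inverted repeat, in which the hexamer TGTTCT on either strand faces itself across 3 bases. The progesterone receptor belongs to the same subfamily, and its DNA-binding domain recognises the same repeat, so that several genes of the set are known to respond to either hormone. In the mammary gland glucocorticoids act with prolactin on milk protein genes in the epithelium, while fat cells, immune cells and vessels of the gland also carry the receptor.

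Mammary RNA came from nulliparous Balb/c mice whose ovaries had been removed at 6 weeks of age, with 2 weeks of rest before treatment, in P4 and oil groups alike. P4 mice were given 1 mg of progesterone in 100 µl of sesame oil under the skin each day, oil mice were given the oil, and glands were taken 4, 16, 28 or 76 h after the first injection. The 8 groups were P4 at 4, 16, 28 and 76 h and oil at 4, 16, 28 and 76 h, with 3 Affymetrix Mouse Genome 430 2.0 arrays each, 24 in all. RNA of 5 mice was pooled for an array, and an error here is the spread between pools. Removal of the adrenal glands is not mentioned in the sources used here. On a daily schedule the 28 and 76 h mice had more injections than the others, and the hour of day at which mice were treated or killed is not given in the sources used here. The whole gland was measured, so that a lower value can come from fewer cells of a type or from less RNA per cell, which cannot be told apart. Adipoq, a fat cell marker, averaged an intensity of 11305 and the epithelial keratin Krt8 1155 over the 24 arrays.

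Promoter windows of RefSeq (build GRCm38.p6, 250 bases before to 50 after each transcript start) were available for 9 of the 10 genes, in 17 windows. They were searched on both strands for the whole inverted repeat (TGTTCT on each strand, 3 bases between), for the hexamer TGTTCT alone and for the cAMP response element TGACGTCA. The whole repeat was found in 3 of 32851 windows of the table (0.00913%), and 1 of the 3 belongs to Sgk1. The hexamer, which is part of the whole repeat, lay in 19% of all windows and in 4 of the 17, 3 of Sgk1 and 1 of Tsc22d3. The cAMP response element lay in 1.79% of all windows, and among the 10 genes in those of Dusp1 and Errfi1. The Sgk1 window with the repeat, a Tsc22d3 window with the hexamer and the Dusp1 window with the cAMP response element are shown because each sets a searched pattern beside a gene of the results, with the matches of any of the 3 patterns in capitals. A match describes these letters and is no evidence that a receptor sits there.
Sgk1, chr10:21993640-21993939, plus strand, repeat from position -189 of the start: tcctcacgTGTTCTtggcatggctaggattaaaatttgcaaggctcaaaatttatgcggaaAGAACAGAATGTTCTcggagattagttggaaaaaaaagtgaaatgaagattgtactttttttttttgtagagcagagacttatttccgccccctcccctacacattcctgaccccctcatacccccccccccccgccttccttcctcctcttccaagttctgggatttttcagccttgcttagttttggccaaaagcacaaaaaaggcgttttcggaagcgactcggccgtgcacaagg
Tsc22d3, chrX:140600473-140600772, minus strand, hexamer from position -185: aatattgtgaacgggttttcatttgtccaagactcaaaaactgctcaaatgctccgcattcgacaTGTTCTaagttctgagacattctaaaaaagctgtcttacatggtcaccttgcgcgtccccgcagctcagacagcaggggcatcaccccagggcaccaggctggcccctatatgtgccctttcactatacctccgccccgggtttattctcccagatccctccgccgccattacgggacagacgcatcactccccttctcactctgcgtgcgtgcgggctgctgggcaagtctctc
Dusp1, chr17:26508423-26508722, minus strand, cAMP response element from position -143: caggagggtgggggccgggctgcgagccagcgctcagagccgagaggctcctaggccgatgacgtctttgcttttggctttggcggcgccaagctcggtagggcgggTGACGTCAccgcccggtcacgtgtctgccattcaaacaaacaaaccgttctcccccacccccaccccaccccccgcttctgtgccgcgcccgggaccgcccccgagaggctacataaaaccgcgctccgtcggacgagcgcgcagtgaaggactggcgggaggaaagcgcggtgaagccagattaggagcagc

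Every call among the 10 genes at a single time had P4 as the lower group. Tsc22d3 and Ddit4 were lower with P4 at 16 and 28 h, Dusp1 at 16 and 76 h and Klf15 at 76 h, and no gene of the set was called higher at any time. At 4 h none of the 10 was called with limma (Benjamini-Hochberg adjusted p under 0.05 over all genes), where 0.186% of all genes were called. There 1 of the 10, Errfi1, had an unadjusted p under 0.05, a threshold at which all genes were not counted. At 16 h 3 of 10 were called, all lower, against a background of 0.308% of genes called and 0.202% called lower. At 28 h 2 of 10 were called lower, where 2.53% of genes were called and 0.591% were called lower. At 76 h 2 of 10 were called lower, and there 17.8% of genes were called and 6.70% were called lower.

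The differences of the whole set, log2 P4 minus oil, had medians of -0.01, -0.23, -0.25 and -0.15 for 4, 16, 28 and 76 h. The medians of all tested genes at the same times were -0.01, -0.07, 0.00330 and 0.02. At 16 and at 28 h each of the 10 differences was below 0, while 5 of 10 were below 0 at 4 h and 6 of 10 at 76 h. The arrays of the groups did not overlap for 6 genes at 16 h, all 6 lower with P4, where 11.7% of all genes were lower without overlap. At 28 h this held for 2 genes, against 5.24% of all genes. At 76 h 2 were lower and 2 higher without overlap, where 18.9% and 25.8% of all genes were.

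**Figure D1:**
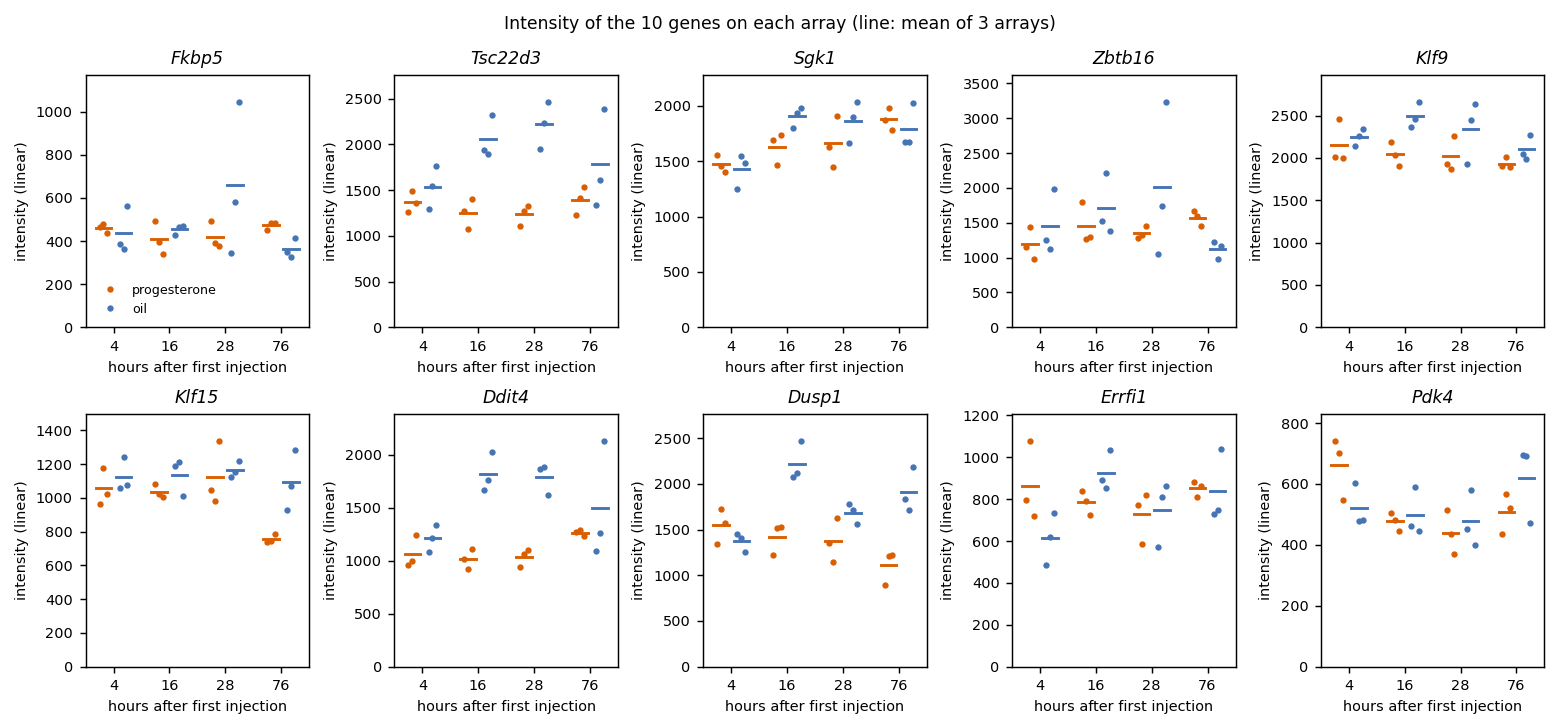
Linear intensity of each of the 10 genes on each array (points) against hours after the first injection, P4 left of oil at each time, with a line at the mean of 3 arrays. Tsc22d3 and Ddit4 stay near their 4 h level in P4 glands at 16 and 28 h, while the oil arrays of those times lie above them without overlap.

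**Figure D2:**
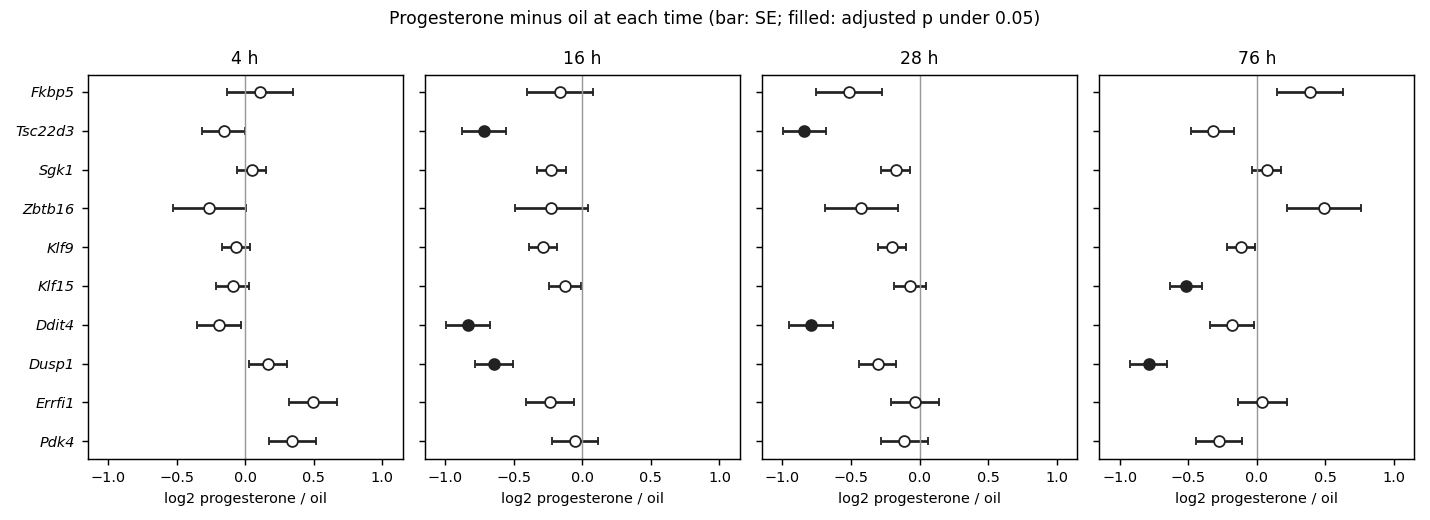
Difference of P4 minus oil in log2 intensity for each gene (down the page) at 4, 16, 28 and 76 h, with the SE of the model as bars and filled points where the adjusted p was under 0.05. The 7 filled points all lie left of 0.

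Among genes that restrain signalling, Tsc22d3 (chrX:140539528-140600522), also known as GILZ, encodes a leucine zipper protein that holds back the inflammatory factors NF-kB and AP-1. At 4 h Tsc22d3 read 1256, 1491 and 1355 in P4 glands, against 1291, 1541 and 1764 in oil glands. At 16 h it read 1273, 1078 and 1406 with P4 and 1944, 1893 and 2326 with oil. At 28 h the P4 arrays gave 1112, 1272 and 1327, against 1954, 2233 and 2469 on the oil arrays. The groups overlapped at 4 h, and at 16 and 28 h every P4 array lay below every oil array. The log2 difference was -0.16 ± 0.158 at 4 h, -0.72 ± 0.158 at 16 h (adjusted p = 0.0491) and -0.84 ± 0.158 at 28 h (adjusted p = 0.00278; limma, SE, 3 arrays per group), so that P4 glands held 0.609 and 0.559 of the oil level at 16 and 28 h. At 76 h Tsc22d3 read 1229, 1409 and 1529 with P4, against 1343, 1614 and 2388 with oil, groups that overlapped, and the difference of -0.32 had an adjusted p of 0.176. It was -0.51 and called (0.0382) without the first oil array of 76 h, and -0.09 (0.753) without the third.

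Ddit4 (chr10:59949675-59951770), or REDD1, encodes an inhibitor of the growth kinase complex mTORC1 that stress and glucocorticoids induce. At 16 h Ddit4 read 1018, 925 and 1112 in P4 glands, against 1667, 1758 and 2027 in oil glands. At 28 h the P4 arrays read 942, 1064 and 1097, against 1862, 1887 and 1618 on oil arrays. No array of the groups overlapped at either time, and the lowest oil array stood well above the highest P4 array. The log2 difference was -0.84 ± 0.160 at 16 h (adjusted p = 0.0167) and -0.79 ± 0.160 at 28 h (adjusted p = 0.00538). At 4 h it was -0.19, with P4 arrays of 963, 996 and 1240 and oil arrays of 1085, 1212 and 1341. At 76 h Ddit4 read 1274, 1285 and 1232 with P4 and 1093, 1262 and 2130 with oil. The third oil array of 76 h stood far above the others, the groups overlapped, and the difference was -0.18 (adjusted p = 0.496) with that array and 0.10 without it.

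The calls of Tsc22d3 and Ddit4 at 16 h were each lost without single arrays, and that of Tsc22d3 lay close to the threshold. Tsc22d3 at 16 h was lost without 20 of the 24 arrays in turn, with an adjusted p of up to 0.408 (without the second P4 array of 16 h), and kept without the first P4 array of 16 h, the third oil array of 28 h, or oil array 1 or 3 of 76 h. Ddit4 at 16 h was lost without the second P4 array of that time (adjusted p = 0.148) and without oil array 2 (0.0717) or 3 (0.111) of 16 h. At 28 h Tsc22d3 kept its call without any array, and Ddit4 was lost without the first P4 array of 28 h (0.0502). The difference itself stayed at -0.61 or below for Tsc22d3 and at -0.72 or below for Ddit4 at 16 and 28 h, whichever array was left out.

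Dusp1 (chr17:26505591-26508472) encodes a nuclear phosphatase that switches off the MAP kinases p38 and JNK, and it is also an immediate early gene of many stimuli. At 4 h Dusp1 read 1343, 1722 and 1574 in P4 glands, against 1448, 1413 and 1257 in oil glands. At 16 h the P4 arrays read 1223, 1520 and 1528, against 2079, 2118 and 2472 with oil. At 76 h they read 891, 1217 and 1224, against 1834, 1711 and 2181 with oil. The groups overlapped at 4 h and lay apart at 16 and 76 h, with P4 below. Dusp1 was lower by a log2 difference of -0.65 ± 0.137 at 16 h (adjusted p = 0.0449) and of -0.79 ± 0.137 at 76 h (adjusted p = 1.92e-04), while at 28 h it stood at -0.31 (adjusted p = 0.340) with overlapping arrays and at 4 h at 0.17. The call at 76 h held without any array. The call at 16 h was lost without 12 of the 24, at adjusted p up to 0.181: P4 arrays 2 and 3 and oil arrays 1, 2 and 3 of 16 h, P4 array 2 of 76 h, and oil arrays 1 and 2 of 4, 28 and 76 h.

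A difference from oil that varied between times was called for 1 of the 10 genes, Dusp1. The moderated F-test of the 4 differences gave F = 9.65 (adjusted p = 0.00658), where 10.02% of all genes passed. The difference at 76 h was lower than that at 4 h by a log2 value of -0.96 ± 0.193 (adjusted p = 0.00274), where 2.02% of genes had a lower difference at 76 h. For Ddit4 the same F-test gave an adjusted p of 0.0634 and for Tsc22d3 0.108. Without the third oil array of 76 h these became 7.46e-04 and 0.0155, and without the first oil array of 28 h Fkbp5 passed as well (0.0135, against 0.260 with it).

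Errfi1 (chr4:150853796-150868889), or MIG6, binds and inhibits the epidermal growth factor receptor. At 4 h Errfi1 read 795, 1078 and 717 with P4, against 485, 620 and 733 with oil. The highest oil array lay above the lowest P4 array, and the difference of 0.49 ± 0.177 had an adjusted p of 0.227. This was the largest difference of the set at 4 h, and it was not called. At 16 h Errfi1 stood at -0.24, at 28 h at -0.03 and at 76 h at 0.04.

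Sgk1 (chr10:21882184-21999903) encodes a kinase that raises sodium channel and glucose transporter activity, and is induced by gluco- and mineralocorticoids. Its differences were small at all 4 times: 0.05, -0.23, -0.17 and 0.07 in the order of time, none called. At 16 h the P4 arrays read 1690, 1464 and 1735, against 1799, 1938 and 1977 with oil. They did not overlap, and the adjusted p was 0.267. The 95% interval of the mean of the 4 differences ran from -0.18 to 0.04.

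Among the transcription factors, Klf15 (chr6:90461043-90491803), a zinc finger factor of amino acid and lipid catabolism, read 738, 747 and 785 in P4 glands at 76 h, against 926, 1071 and 1285 in oil glands. The 3 P4 arrays of 76 h were the lowest of all 24 arrays for Klf15 and overlapped no other group. The log2 difference was -0.52 ± 0.117 (adjusted p = 0.00280), or 0.698 of the oil level, and the call held without any array. At the earlier times Klf15 stood at -0.09, -0.13 and -0.07 for 4, 16 and 28 h, with overlapping arrays.

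Klf9 (chr19:23141226-23168129), a zinc finger factor that glucocorticoids and progesterone are both known to induce, was not called at any time, with differences of -0.06, -0.29, -0.20 and -0.12 for 4, 16, 28 and 76 h. At 16 h its P4 arrays read 2189, 2033 and 1909, against 2361, 2454 and 2665 with oil. The groups did not overlap there and the adjusted p was 0.188. The adjusted p was 0.0494 without the first P4 array of 16 h.

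Fkbp5 (chr17:28398753-28486149) encodes the co-chaperone that keeps the steroid receptor complex at low affinity, and is a feedback gene of glucocorticoid, androgen and progesterone receptors. Zbtb16 (chr9:48651797-48836225), or PLZF, is a repressor that both glucocorticoids and progestins induce in human endometrial stroma. At 76 h Fkbp5 read 453, 483 and 483 with P4, against 350, 325 and 414 with oil. Zbtb16 read 1663, 1601 and 1461 with P4 at that time, against 1230, 979 and 1163 with oil. Both were higher on every P4 array than on any oil array, as were 25.8% of all genes. The differences, 0.39 ± 0.241 and 0.49 ± 0.268, were not called with limma over 24 arrays (adjusted p = 0.301 and 0.229), whereas in a fit to the 6 arrays of 76 h they were (0.0146 and 0.00340). That fit called 3533 of the 12352 genes.

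The oil arrays of 28 h spread far for this pair. Fkbp5 read 345, 583 and 1047 on them, against 493, 391 and 375 on the P4 arrays of that time. Zbtb16 read 1057, 1739 and 3240 with oil, against 1287, 1321 and 1451 with P4. The third oil array of 28 h was the highest of all 24 for either gene. The log2 differences at 28 h were -0.51 (adjusted p = 0.380) and -0.42 (0.601). Without the first oil array of 28 h, the lowest, Fkbp5 was called lower (-0.91, adjusted p = 0.0187). Without the third, the differences were -0.11 for Fkbp5 (adjusted p = 0.849) and -0.00475 for Zbtb16 (0.996).

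Pdk4 (chr6:5483351-5496278) encodes the kinase that shuts down pyruvate dehydrogenase when fat is burnt, and fasting as well as glucocorticoids induce it. It was not called at any time, with differences of 0.34, -0.05, -0.11 and -0.28 for 4, 16, 28 and 76 h. At 4 h its P4 arrays read 742, 701 and 546, against 602, 478 and 482 with oil, with overlap.

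Over the mean of the 4 differences, 5 of the 10 genes were lower with P4, where 12.5% of all genes were called and 6.63% called lower. Tsc22d3 stood at -0.51 ± 0.079 (adjusted p = 1.19e-04), Ddit4 at -0.50 ± 0.080 (1.73e-04), Dusp1 at -0.39 ± 0.068 (4.11e-04), Klf15 at -0.20 ± 0.059 (0.0238) and Klf9 at -0.17 ± 0.051 (0.0322). Without the 76 h difference Tsc22d3 (-0.57) and Ddit4 (-0.60) passed, where 3.04% of genes were called lower, and Dusp1 (adjusted p = 0.0560), Klf9 (0.0725) and Klf15 (0.439) did not. Klf9 did not pass either without the 16 h (0.178) or the 28 h difference (0.0944), with no filter (0.0541), with quantile normalization (0.121) or with the variance without trend (0.0568). Klf15 was also lost without the first P4 array of 4 h (0.0514), the second oil array of 4 h (0.0518) or the third oil array of 76 h (0.0515), and Klf9 without 14 of the 24 arrays in turn, at adjusted p up to 0.0654. Fkbp5 had a mean difference of -0.05 with a 95% interval from -0.30 to 0.20, and Errfi1, Pdk4, Zbtb16 and Sgk1 lay between -0.10 and 0.07.

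The oil groups themselves were not level for these genes. Oil glands of 4 h held the lowest oil mean of Tsc22d3, Sgk1, Ddit4, Dusp1 and Errfi1, and those of 16 or 28 h the highest. A moderated F-test of the 4 oil groups passed for Dusp1 (adjusted p = 0.00947), Sgk1 (0.0275) and Ddit4 (0.0347), 3 of the 10, where 12.2% of all genes passed. Tsc22d3 (0.0683) and Errfi1 (0.0795) did not pass.

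Oil glands of 16 h against those of 4 h gave 2 genes higher, where 2.30% of all genes were called and 0.526% called higher. Sgk1 read 1799, 1938 and 1977 at 16 h, against 1252, 1548 and 1483 at 4 h, a log2 difference of 0.42 ± 0.106 (adjusted p = 0.0403). Dusp1 was higher by 0.69 ± 0.137 (adjusted p = 0.0182), with 2079, 2118 and 2472 at 16 h, against 1448, 1413 and 1257 at 4 h. Ddit4 at 0.58 (0.0523) and Errfi1 at 0.61 (0.0616) did not pass. Oil of 28 h against oil of 4 h gave 2 genes higher, where 3.82% of genes were called and 0.478% called higher: Sgk1 by 0.39 (adjusted p = 0.0376) and Ddit4 by 0.56 (0.0488). Tsc22d3 at 0.54 had an adjusted p of 0.0576.

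None of the 10 was called with limma between oil of 76 h and oil of 4, 16 or 28 h, or between oil of 28 and 16 h. There 3.57%, 0%, 8.39% and 6.89% of all genes were called. An unadjusted p under 0.05 was reached by 3, 3, 4 and 1 of the 10, a threshold at which all genes were not counted. The oil calls of most of these genes were lost without single arrays. Ddit4 at 28 h against 4 h was lost without 20 of the 24 arrays, at adjusted p up to 0.245, and kept without P4 array 3 of 4 h, oil array 3 of 16 h, or oil array 1 or 3 of 76 h. Sgk1 at 16 h against 4 h was lost without 8 arrays, the oil arrays of 4 and 16 h, P4 array 1 of 4 h and oil array 1 of 76 h (up to 0.200). Sgk1 at 28 h was lost without oil array 1 or 3 of 4 h or 2 or 3 of 28 h (up to 0.260), and Dusp1 at 16 h without oil array 1 or 2 of 4 h or 2 or 3 of 16 h (up to 0.0803). The F-test held for Dusp1 without any array. That of Sgk1 was lost without oil array 1 (0.178) or 3 (0.0517) of 4 h or array 2 of 16 h (0.0521), and that of Ddit4 without 7 oil arrays: 1 and 2 of 4 h, 2 and 3 of 16 h, 1 and 2 of 28 h and 2 of 76 h (up to 0.124). Clock genes, listed with 17 members and tested with 16, were called in oil as well, 1 higher and 3 lower at 16 h against 4 h, none at 28 h against 4 h, and 3 higher and 7 lower at 76 h against 4 h, and their part in the values of the set was not tested.

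Markers of cell types and of RNA quality also differed between oil groups. Over the 4 oil groups the F-test passed for 6 of 6 fibroblast, 9 of 12 skeletal muscle and 4 of 5 macrophage markers. It passed for 12.2% of all genes. At 28 h against 4 h the 6 fibroblast and the same 4 macrophage markers were called lower, and the fibroblast sum ran from 29252 to 34349 at 28 h, against 43463 to 47843 at 4 h. There 3.82% of all genes were called, and 0.478% of all genes were called higher. At 16 h against 4 h none of these 3 lists had a called marker by limma, and 1 white and 1 brown fat cell marker were lower. The 3′ over 5′ log2 ratio of the actin control probe sets, a sign of RNA quality, ran from 0.245 to 0.407 in oil of 16 h and from 0.366 to 0.528 in oil of 28 h, against 0.408 to 0.437 in oil of 4 h. Their part in the oil calls was not tested.

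**Figure D3:**
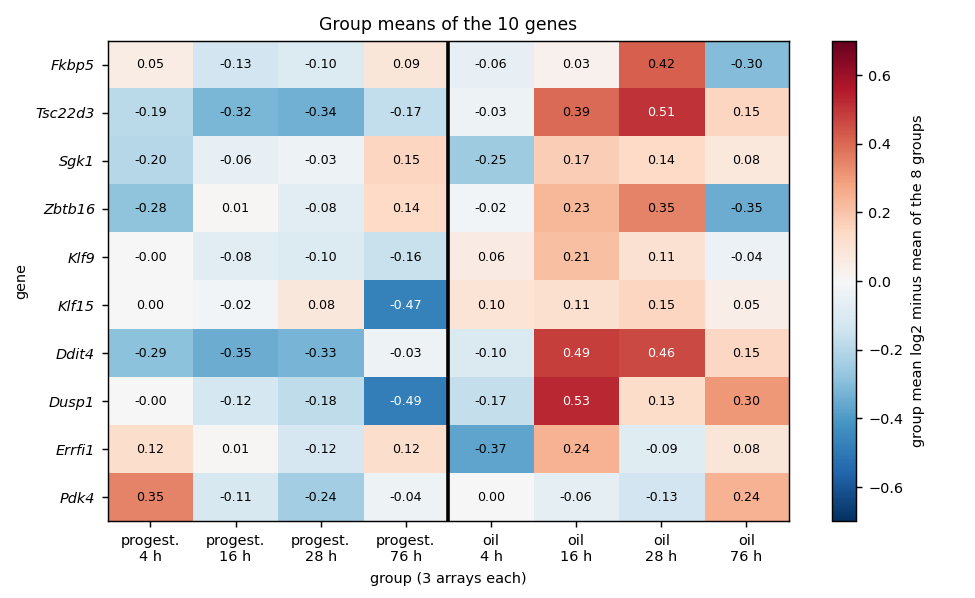
Mean log2 intensity of each of the 8 groups (3 arrays each) minus the mean of the 8 groups for each gene, with P4 groups to the left of oil groups. For Tsc22d3 and Ddit4 the 4 P4 groups lie between -0.35 and -0.03, and oil of 16 and 28 h between 0.39 and 0.51.

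Since 3 genes differed between oil groups, each P4 group was also set against the 9 oil arrays taken at other times. P4 of 4 h was then lower for Tsc22d3 (-0.54, adjusted p = 0.0156), Sgk1 (-0.33, 0.0257) and Ddit4 (-0.65, 0.00523), where 6.51% of genes were called and 3.46% called lower, while none of the 3 was called against the oil of 4 h. P4 of 16 h was lower for Tsc22d3 (-0.53, 0.0204) and Ddit4 (-0.52, 0.0242), where 4.53% were called and 2.23% called lower. P4 of 28 h had no called gene of the set, where 0.874% were called. By limma 5 of 10 had an unadjusted p under 0.05, a threshold at which all genes were not counted. P4 of 76 h was lower for Klf15 (-0.59, 4.60e-05), Dusp1 (-0.65, 9.58e-05), Tsc22d3 (-0.46, 0.00839) and Klf9 (-0.28, 0.0122), where 32.6% of genes were called and 15.7% called lower. P4 of 4 h had the highest mean actin ratio of the 8 groups (0.557, others 0.307 to 0.460) and the highest Gapdh ratio (0.199, others -0.192 to -0.0786), whose part was not tested. At 4 h Tsc22d3 and Ddit4 were lost without P4 array 1 or 2 (adjusted p up to 0.138 and 0.0836), and Sgk1 without any 1 of the 3 (up to 0.180). At 16 h both calls were lost without P4 array 2 (0.252 and 0.230). At 76 h Tsc22d3 was lost without P4 array 1 (0.0843) and Klf9 without array 1 or 3 (up to 0.0611), while Klf15 and Dusp1 were kept without any array. These comparisons share oil arrays with each other and with those at the same time, and they add no independent samples.

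Among the P4 groups, Klf15, Dusp1 and Pdk4 differed between times by the moderated F-test (adjusted p = 0.00352, 0.0459 and 0.0480), where 27.2% of all genes passed. Klf15 at 76 h was lower than at 4 h (-0.48, adjusted p = 0.00449), 16 h (-0.45, 0.00732) and 28 h (-0.55, 0.00158), where 10.7%, 8.55% and 7.31% of genes were called lower. Dusp1 was lower at 76 h than at 4 h (-0.49, 0.0117), and Sgk1 was higher (0.35, 0.0182), where 24.9% of genes were called, 14.2% of all genes higher. The F-test and the 3 lower calls of Klf15 held without any array. The F-test was lost without 13 of the 24 arrays for Dusp1 (adjusted p up to 0.294) and without 15 for Pdk4 (up to 0.211). At 76 h against 4 h Dusp1 was lost without P4 array 2 of 4 h or 1 of 76 h (up to 0.108), and Sgk1 without P4 array 2 or 3 of 4 h or 1 or 2 of 76 h (up to 0.0746). Tsc22d3 means in P4 glands were 1367, 1252, 1237 and 1389 at 4, 16, 28 and 76 h, with an adjusted p of 0.709. Those of Ddit4 were 1066, 1018, 1034 and 1263, with an adjusted p of 0.322.

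Of the 45 pairs of members, 14 had a correlation of log2 intensity over 0.5 across the 24 arrays and 10 had one below 0. Tsc22d3 and Ddit4 had the highest (r = 0.92), and with group means removed r was 0.76. Fkbp5 and Zbtb16 came next (r = 0.82, and 0.85 with group means removed), or 0.66 and 0.72 without the third oil array of 28 h. With group means removed the highest was that of Klf9 and Errfi1 (0.85). Pdk4 had r from -0.34 to 0.09 against the other members. Both genes of a pair were read on the same arrays and RNA pools, and these correlations are descriptions.

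The genes whose pattern over the 24 arrays was most like that of a member were other members in part. After Ddit4, Tsc22d3 was most like the matricellular protein gene Ccn2 (r = 0.87) and the lymphocyte activation marker Cd69 (0.80), and Ddit4 was most like Cxcr4 (0.81) and Ccn2 (0.80). Klf15 was most like Mogat1 (0.83) and Fitm2 (0.83), genes of triglyceride synthesis and lipid droplet formation, and Tmem204 (0.82). Klf9 was most like the cholesterol exporter Abca1 (0.82), Ifi207 (0.81) and Syde2 (0.79). The 3 genes most like Sgk1 were Ppp1r8 (0.83), Sf3b2 (0.79) and Fgfr1op2 (0.79). Fam117b was among the 3 nearest of Fkbp5 (0.76) and of Zbtb16 (0.75), beside Plxna3 (0.68) and Mnt (0.74). For Dusp1, Tnfsf13b (0.74), Ctso (0.73) and Procr (0.71) were nearest, with r under 0.30 once group means were removed. Errfi1 was nearest to Usp53 (0.70), Sgpp1 (0.69) and Mtfr1 (0.69), and Pdk4 to Sgms2 (0.75), Nfs1 (0.75) and Ern1 (0.73). With group means removed, the named pairs other than those of Dusp1 had r from 0.47 (Sgk1 with Fgfr1op2) to 0.84 (Klf9 with Abca1).

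**Figure D4:**
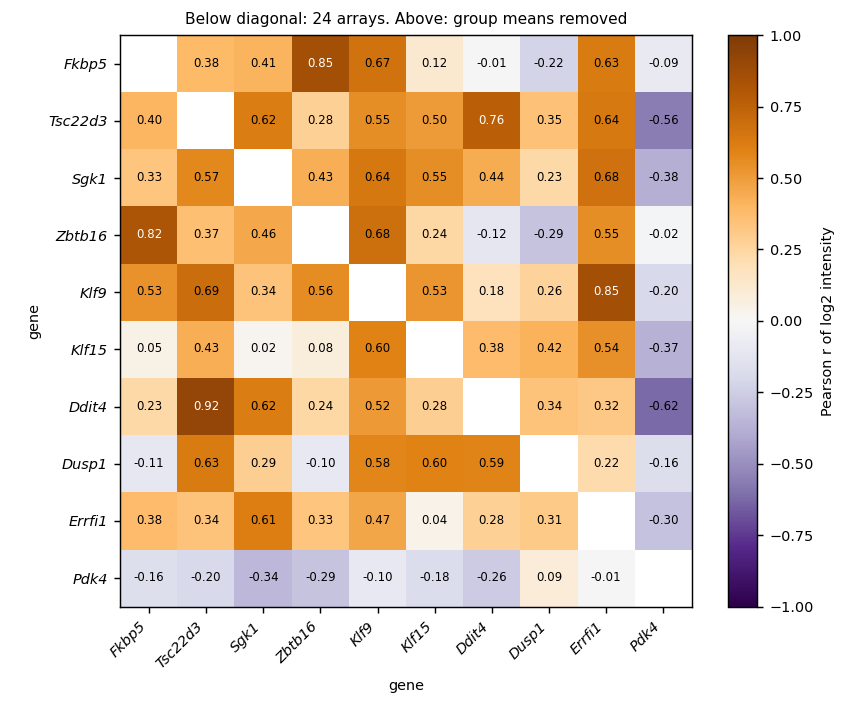
Pearson r of log2 intensity between the 10 genes over 24 arrays (below the diagonal) and after the mean of each group was removed (above it). Tsc22d3 with Ddit4 and Fkbp5 with Zbtb16 are the darkest cells below the diagonal, at 0.92 and 0.82, and Klf9 with Errfi1 reaches 0.85 above it.

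Of 24 probe sets that carry the symbol of a member alone, 21 passed the filter on dim signals, and 5 genes had more than 1 that passed. The other bright Tsc22d3 sets gave -0.78 and -0.95 at 16 h and -0.87 and -0.98 at 28 h, in the direction of the one used. At 4 h the same sets gave -0.19 and -0.77, against -0.16 on the one used, so the size of the 4 h difference depended on the set. When p-values were adjusted over all probe sets rather than over genes, Ddit4 kept its call at 16 h (0.0285), and Tsc22d3 (0.0829) and Dusp1 (0.0746) did not. Errfi1 was read differently by its sets at 4 h, 0.49 on the one used and -0.01 on the other. For Zbtb16 at 76 h the sets with mean intensities of 1484 and 571 gave 0.49 and 0.82, and the dimmest, with a mean of 71.5, gave -0.11. For Klf9 the mean of the 4 differences was -0.17 on the set used (limma, adjusted p = 0.0457 over all probe sets). On its other passing sets it was -0.27 (0.0191), -0.23 (0.0883), -0.18 (0.528), -0.32 (0.0128) and -0.02 (0.946), so the call depended on the set.

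**Figure D5:**
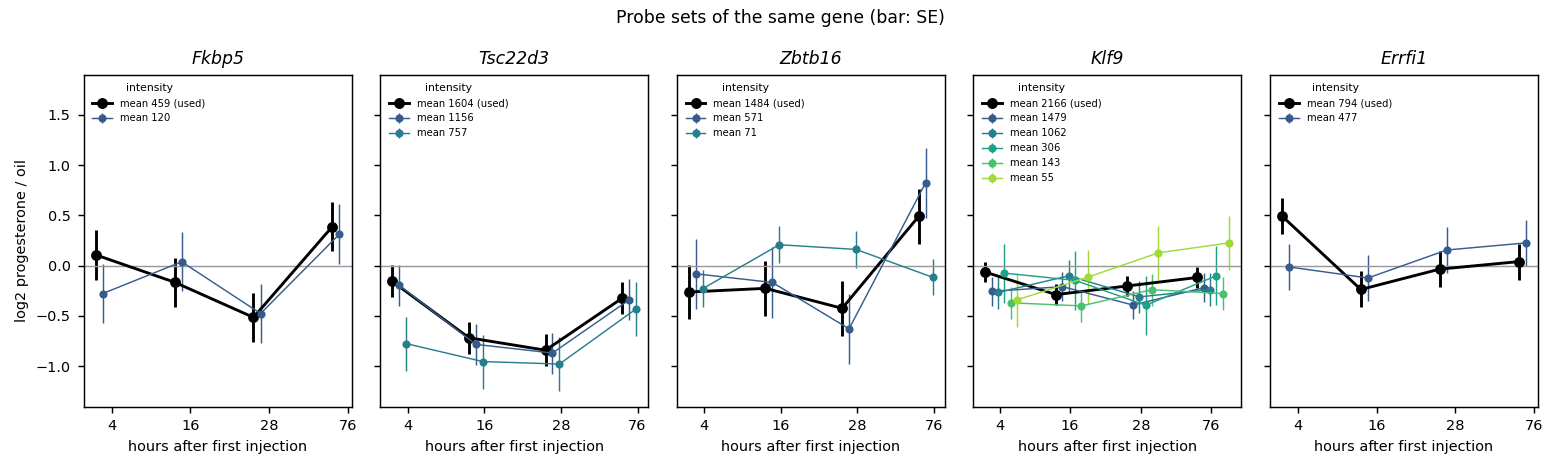
Difference of P4 minus oil (log2, SE as bars) against hours after the first injection for each probe set of the 5 genes with more than 1 that passed the filter, the one used in black and named by mean intensity. All 3 Tsc22d3 sets lie below 0 at 16 and 28 h, and the 2 of Errfi1 part at 4 h.

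The receptor and the enzymes that set its ligand were read beside the targets. Nr3c1, the glucocorticoid receptor, averaged 2145 ± 230.1, 2133 ± 382, 2087 ± 90.4 and 1922 ± 45.5 in P4 glands at 4, 16, 28 and 76 h, against 2055 ± 72.2, 2056 ± 367, 2029 ± 152 and 1799 ± 100.0 in oil glands (SD, n = 3). Its log2 differences lay between 0.04 and 0.10 and none was called. Hsd11b1, the enzyme that makes active glucocorticoid from its inert keto form inside cells, was lower with P4 at 76 h: 1207, 1374 and 1218, against 2738, 2636 and 2421 with oil. The groups lay far apart, at -1.04 ± 0.125 (adjusted p = 2.09e-06), whereas at 4, 16 and 28 h Hsd11b1 stood at -0.04, -0.08 and -0.20. Hsd11b2, which inactivates glucocorticoid, and Nr3c2, the mineralocorticoid receptor, were dim and not called, with means between 72.8 and 131 in all groups. Pgr, the progesterone receptor, was lower with P4 at 4 h (85.5 ± 15.6, against 464 ± 46.6 with oil), 16 h (170 ± 19.9, against 465 ± 107) and 28 h (178 ± 67.2, against 426 ± 19.4). At 76 h Pgr averaged 279 ± 29.7 in P4 glands, against 279 ± 43.2 in oil glands. Of 10 receptor chaperones and coregulators tested, none was called at any of the 4 times by limma.

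Of all genes, 0.186%, 0.308%, 2.53% and 17.8% were called with P4 against oil at 4, 16, 28 and 76 h. Of 28 other glucocorticoid-responsive genes tested, 1, 1 and 3 were called at 4, 16 and 28 h. At 4 h the metallothionein Mt2 was higher with P4 (1383 ± 111, against 723 ± 57.0 with oil, adjusted p = 0.0228) and none was lower. At 16 h Ccn2, a matricellular growth factor gene, was lower (-1.30, adjusted p = 6.25e-04) and none was higher. At 28 h Lcn2, an iron-binding defence protein gene, was higher (0.63), and Ccn2 (-1.88) and the metabolic factor gene Foxo1 (-0.27) were lower. At 76 h 6 were higher and 6 lower, and they did not share a direction as a list (median -0.12). Fbxo32 (1.50), a ubiquitin ligase gene of muscle wasting, Rgs2 (1.34) and the cell cycle inhibitor gene Cdkn1c (0.98) were higher with Mt2 (1.23), and the 6 lower genes ran from -0.84 to -0.40. Over the mean of the 4 differences Mt2, Rgs2, Lcn2, Cdkn1c, Angptl4, Fbxo32 and Anxa1 were called higher. Per1, Ccn2, Slc10a6, Lpin1, Cebpd and Acer2 were called lower.

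Related programmes were read the same way, beside the same shares of all genes called. Of 10 fasting and PPAR targets tested, which include Pdk4 and also Angptl4 of the list before, Acot1, a fatty acyl thioesterase gene, was higher with P4 at 4 h (1.96), 28 h (1.31) and 76 h (3.57). At 76 h Cpt1a was higher as well (0.83), and 3 were lower, among them Ucp3 (-1.05) and Plin2 (-0.43). Of 15 immediate early genes, none was called at 4 or 16 h by limma, 3 were higher at 28 h (Egr2 by 1.74, Egr1 by 1.05 and Ier3 by 0.55), and 5 were higher and 2 lower at 76 h, with Egr2 at 2.06, Myc at 0.96, Ier3 at 0.89 and Egr1 at 0.86. Of 16 clock genes, none was called at 4 or 16 h, Tef was lower at 28 h (-0.50), and at 76 h Arntl (-0.66) and Clock (-0.31) were lower and Hlf higher (0.58). Over the mean of the 4 differences Npas2 was called higher, and Per1, Per2, Dbp, Tef, Nr1d2 and Ciart were called lower. Of 4 milk genes tested, none was called at 4 or 16 h, the caseins Csn1s2a (-3.04) and Csn2 (-2.47) were lower at 28 h, and at 76 h Csn3 was higher (0.95) and Lalba lower (-1.54). Csn2 averaged 101 ± 45.8 in P4 glands of 28 h, against 660 ± 496 in oil glands of 28 h (1194, 575 and 212), and 4.51 to 9.19 in the 6 groups of the other times.

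Markers of cell types moved beside the set. At 76 h the sum of 9 luminal epithelial markers ran from 16359 to 18539 in P4 glands, against 5492 to 6785 in oil glands, and 9 of 9 were called higher, as were 7 of 9 basal epithelial markers. There 17.8% of all genes were called, and 6.70% of all genes were called lower. The sum of 6 white fat cell markers ran from 39008 to 43721, against 44184 to 44932, that of 5 endothelial markers from 3067 to 3457, against 4099 to 4372, and that of 6 lymphocyte markers from 5281 to 6115, against 7405 to 8605. Of these, 1 white fat cell, 3 endothelial and 3 lymphocyte markers were called lower. The 5 brown fat cell markers summed to 1418 to 1811 with P4, against 3285 to 4029 with oil, 2 of them called lower, and the 6 fibroblast markers to 47655 to 51185, against 39930 to 43814, with 4 called higher. Klf15 followed the luminal score with r = -0.70 and the white fat cell score with r = 0.70 over 24 arrays, or 0.15 and 0.48 with group means removed, and the brown fat cell score with r = 0.64, or 0.35. Its r was 0.67, or 0.40, with the endothelial score, -0.64, or 0.21, with the basal score and 0.60, or -0.16, with the lymphocyte score. For Dusp1 the luminal score gave -0.51, or 0.24, and the basal score -0.58, or 0.37. The white fat cell score gave Dusp1 0.37, or 0.52, and the endothelial score 0.51, or 0.16. With the score of the clock genes r was 0.59, or 0.63, for Klf15 and 0.31, or 0.50, for Dusp1. The part of cell makeup or of clock genes in the lower Klf15 and Dusp1 of 76 h was not tested.

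At 16 h the 6 lymphocyte markers summed to 6426 to 7713 with P4, against 8005 to 9068 with oil, and at 28 h to 7075 to 9655, against 9629 to 11848. Each of the 6 had a difference below 0 at both times and none was called by limma. Tsc22d3 followed the lymphocyte score with r = 0.55, or 0.09 with group means removed, and Ddit4 with 0.50, or 0.34. With the skeletal muscle score r was -0.20, or -0.52 with group means removed, for Tsc22d3 and -0.23, or -0.60, for Ddit4. For Pdk4 the same score gave 0.34, or 0.68, and the part of muscle in the Pdk4 values was not tested. With the fibroblast score r was -0.51, or 0.02, for Tsc22d3 and -0.46, or -0.16, for Ddit4. The basal score gave -0.44, or 0.13, and -0.28, or 0.22, in the same order. The 12 skeletal muscle markers summed to 31318 to 36991 with P4 at 16 h, against 38105 to 67532 with oil, and to 17631 to 42430 with P4 at 28 h, against 12845 to 21149 with oil. None of the 12 was called by limma at either time. The 9 basal epithelial markers summed to 8458 to 9392 with P4 at 16 h, against 7488 to 7790 with oil, and to 8046 to 9718 with P4 at 28 h, against 7112 to 7477 with oil, with 3 called higher each time. At 16 and 28 h 0.308% and 2.53% of all genes were called. Fibroblast markers summed to 36779 to 43566 with P4 at 28 h, against 29252 to 34349 with oil, with 3 of 6 called higher. No tested marker of these lists lay at the floor on all arrays, and the part of these cell types in the lower Tsc22d3 and Ddit4 was not tested.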

How the data were processed

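Mammary RNA was hybridized to Affymetrix Mouse Genome 430 2.0 arrays, 3 per group, each a pool of 5 mice, per the labels' protocols. The values deposited by the authors are linear intensity values of 45101 probe sets. How probes were summarized and arrays scaled is not given in the sources used here. Array medians ran from 62.8 to 70.2 (span 0.16 in log2, under the limit of 0.3 set for a further normalization), so values were used as deposited.

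Values under the 10th percentile (7.38) were raised to it and log2 was taken. Genes came from the platform annotation (34945 probe sets with 1 symbol, 932 with several, 9160 with none) with symbols updated through RefSeq, the 64 control probe sets were left out, and a probe set had to exceed its array's median on 3 arrays. All 24 arrays were fitted with limma 3.58.1 in R 4.3.3 (a mean per group, intensity trend, 16 residual degrees of freedom), two-sided, with Benjamini-Hochberg adjustment over 12352 genes at 0.05. Errors of log2 differences are SE, and intervals are 95%. P-values measure the spread between pools. The fit called most of the largest seeded changes in simulated data with independent noise for each gene. No number of calls was required there at smaller changes.

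The members and the lists were chosen with earlier results of these data known. Besides the members, the rule named Nr3c1, Nr3c2, Pgr, Hsd11b1, Hsd11b2, up to 4 called genes of each list per comparison by size, and the 3 genes most like each member. Alternatives were other filters, floors, normalizations, probe set rules, variance models and thresholds, a replicate block, the 6 arrays of a time, and each array left out. The F-test of the P4 groups and the means leaving out a time were added after the data had been seen.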

Additional observations from a re-analysis of the deposited data

Results flagged for a closer look

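Dusp1 differed between times in its response, by a test of the difference itself. The moderated F-test of the 4 P4 minus oil differences had an adjusted p of 0.00658 with limma over all genes. The difference at 76 h was below that at 4 h by -0.96 on the log2 scale (adjusted p = 0.00274). The 3 P4 arrays of 76 h lay below the 3 oil arrays of 76 h, while at 4 h the groups overlapped. With 3 arrays per group, no group was large enough for a test of single deviating arrays.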

How the results depend on the processing

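With each array left out in turn, the number of members called stayed at 0 at 4 h and ran from 0 to 4 at 16 h, 1 to 3 at 28 h and 2 to 3 at 76 h. It ran from 1 to 3 for differences that vary between times, 3 to 5 for the mean of the 4 differences, 1 to 4 for the oil groups, 0 to 4 for oil of 16 against 4 h, 0 to 3 for 28 against 4 h, 0 to 1 for 76 against 4 h and for 28 against 16 h, 0 to 0 for 76 against 16 h and 0 to 2 for 76 against 28 h. Against oil of other times it ran from 0 to 3 at 4 h, 0 to 2 at 16 h, 0 to 3 at 28 h and 2 to 5 at 76 h, and 1 to 3 of the members differed between P4 groups. Over all genes the counts of 23, 38, 313 and 2195 at 4, 16, 28 and 76 h ran from 12 to 477, 8 to 1843, 140 to 459 and 1383 to 2392.

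At 16 h the members called were 0 with no filter or at an adjusted p under 0.01, and 1 with quantile normalization, with the mean of all probe sets of a gene, with the variance without trend, or in a fit to the 6 arrays of the time. At 28 h there was 1 with the mean of all probe sets, and at 76 h 4 with the 6 arrays. For the mean of the differences there were 2 without the 76 h difference and 3 at an adjusted p under 0.01. In oil at 16 against 4 h there was 1 with no filter, with centring on array medians or without trend, 4 at a threshold of 0.1 and 0 at 0.01. In oil at 28 against 4 h there were 0 with no filter, without trend or at 0.01, and 1 with centring, with the mean of probe sets or with the robust variance. For the oil groups there was 1 without trend or at 0.01 and 5 at 0.1. For oil of 76 against 4 h there was 1 with quantile normalization and 2 at 0.1, for 28 against 16 h 1 at 0.1, and for 76 against 28 h 1 with the mean of probe sets or at 0.1. Against other-time oil there was 1 at 16 h with no filter or with the mean of probe sets and 0 at 0.01, 1 at 4 h at 0.01, and at 28 h 1 with centring and 2 at 0.1. Differences varied between times for 2 at 0.1, and the P4 groups differed for 1 with no filter, with the mean of probe sets, without trend or at 0.01.

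Array weights raised most counts: 2, 7, 4 and 4 members at 4, 16, 28 and 76 h, 8 that varied between times, 8 between oil groups, 5, 2, 2, 4 and 5 for oil of 16 against 4, 76 against 4, 28 against 16, 76 against 16 and 76 against 28 h, 8, 4 and 3 for P4 of 4, 16 and 28 h against other oil, and 5 between P4 groups. Over all genes they gave 2771, 7332, 1619 and 4827 calls at the 4 times, between 1961 and 10189 in the other comparisons given here, and the 6 arrays of a time gave 11, 16, 76 and 3533. The cause was not tested. The fit with a replicate block gave 3 members that varied between times (Tsc22d3 0.0162, Ddit4 0.0321 and Dusp1) and 2 at 28 h against other oil. In oil it also called Tsc22d3 between groups (0.0112) and at 28 against 4 h (0.00695), and Ddit4 at 16 against 4 h (0.0449). The labels give only a biological replicate number, and whether it pairs P4 with oil samples cannot be told from them. Deviations of same-numbered arrays correlated from -0.02 to 0.35, over 0.1 in 6 of 12 pairs, and 7 of 12 correlated best with their own number. No member called in P4 against oil, in the mean of the differences, in oil of 16 or 28 against 4 h or in P4 of 76 h against the other P4 groups changed sign under the alternatives run for these.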
